A study of Arabidopsis thaliana with 13 samples.

Results

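Strong daily rhythms that crested from hour 4 to under hour 8, counted modulo 24 from the hours of the sampled course, were carried by 96 probe sets, the groups of short probes by which an Affymetrix array measures 1 transcript. They were 96 of the 13611 probe sets with a mean log2 signal above 5 (0.705%), out of 22746 non-control probe sets on the array. A curve with an intercept, a straight line in time, and a cosine and sine of 24 h was fitted to each probe set. Members were chosen by these fitted values. They had an amplitude of at least 0.5 on the log2 scale (the height of the curve above its mean), a partial R2 of at least 0.65 for the cosine and sine, and a fitted peak inside the window. Genes named UGT, SWEET, EXPA, XTH, SCPL or BGLU were left out, which removed 1 probe set, that of EXPA8. Because amplitude, partial R2 and peak time chose the members, amplitudes, peaks and trough-to-peak changes are given as a description, without a test.

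The RNA came from whole Col-0 seedlings of Arabidopsis thaliana at developmental stage 1.0, in a single course of 13 ATH1 arrays, 1 at each time point, spaced 4 h apart between hours 26 and 74. The plants grew at 22 C in a growth room with a 12 h photoperiod, on MS agar plates holding 3% sucrose, and no genotype or treatment differed between arrays. Neither the zero hour nor the lighting during sampling is described in the labels, so no peak can be called a morning or evening peak. No time point had a replicate, so every p-value measures the scatter of arrays round a curve, and precision is limited by how few arrays there are.

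The circadian clock of plants is a loop of transcription factors that repress or activate one another in turn, and it drives output genes whose transcripts crest at different times of day. Light and sugar supply reset that clock and also act on many of its output genes directly. Genes for growth, defence, and the use of carbon and nitrogen reserves are among the known outputs in seedlings.

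The array annotation gave 1 gene to 46 of the 96 probe sets, several to 2 and none to 48. All 96 passed the filter on low signal, because that filter is part of the rule. The share with a single gene was 47.9%, against 53.8% of all tested probe sets. Median signals of the 13 arrays were 46.8 to 50.9 units over the non-control probe sets, after the authors' scaling of each array to a common level. The whole-seedling labels were set against tissue markers. RCA, the Rubisco activase of leaves, had a mean log2 signal of 11.58, PYK10, an abundant root beta-glucosidase, one of 11.50, and neither was called rhythmic by limma (adjusted p of 0.33 and 0.71). The other tested root markers, EXPA18 and EXPA7, were dim, at 5.48 and 5.22, as was FMA of the guard cell and trichome markers, at 5.49. Limma called none of these rhythmic (adjusted p of 0.51, 0.57 and 0.70). In whole seedlings a fall in the number of cells that hold a transcript and a fall in its amount per cell cannot be told apart.

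The median profile of the set was highest at hours 30 and 54 and lowest at hours 42 and 66. The rule on the fitted peak set this timing in advance, and single probe sets differed from it. The trough-to-peak change ranged from 2.01-fold to 27.9-fold, with a median of 2.81-fold and a middle spread of 2.28-fold to 3.83-fold. At least a 4-fold change was fitted for 23 probe sets and less than a 2.5-fold change for 34. The median fitted peak was hour 6.20, the quartiles were hours 5.21 and 6.95, and the median standard error of a peak was 0.51 h.

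The highest array was that of hour 54 for 55 of the 96 probe sets and that of hour 30 for 29. The lowest array was that of hour 42 for 31 and that of hour 66 for 23, and in 95 of 96 it lay at hour 14, 18 or 22 of the day. Both arrays at hour 6 of the day exceeded both arrays at hour 18 in 95 of 96 probe sets. That order was found in 27.3% of all tested probe sets, and since the rule used the same contrast, nothing is read from the count. The exception was AT1G66100, whose level was 152 at hour 30 and 153 at hour 66.

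**Figure D1:**
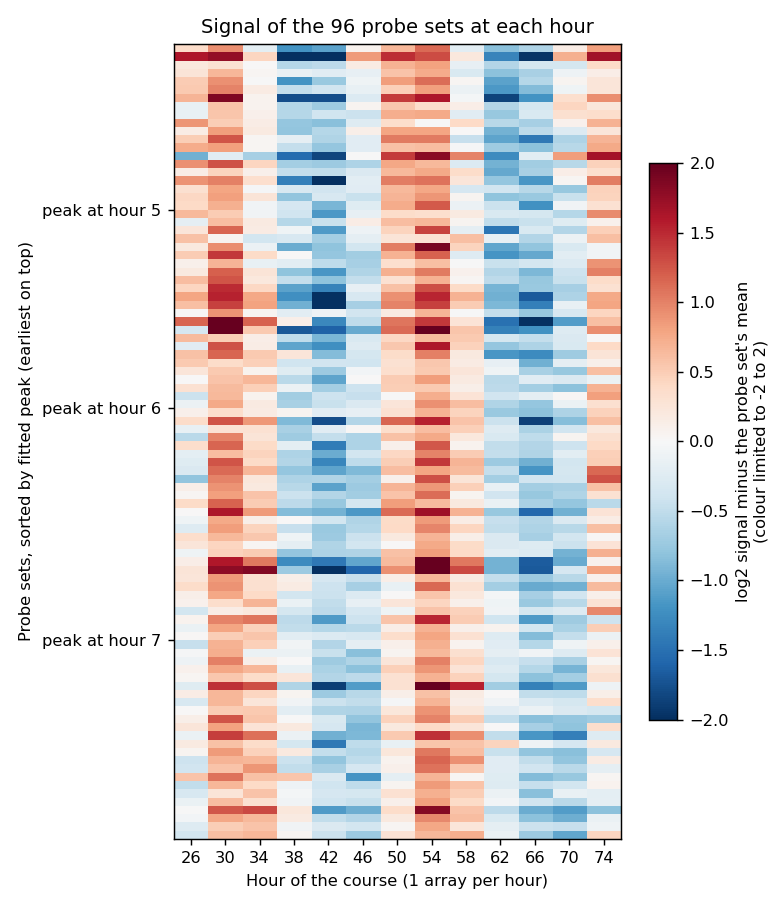
Log2 signal of the 96 probe sets minus each probe set's own mean, by hour of the course (1 array per column) and sorted by fitted peak from hour 4 at the top to hour 8 at the bottom. Red marks levels above the mean and blue levels below it, with red columns at hours 30 and 54, and the red shifts from the left flank of each crest to its right flank from the top rows to the bottom rows.

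The climb to the crest was steepest in the step from hour 22 to hour 2, and the descent in the step from hour 10 to hour 14. From hour 46 to hour 50 all 96 probe sets were higher at the later array, by a median of 0.80 on the log2 scale, and from hour 70 to hour 74, 93 were higher, by 0.77. From hour 58 to hour 62 all 96 were lower at the later array, with a median step of -0.73, and from hour 34 to hour 38, 94 were lower, with a median of -0.75. Over all tested probe sets the median of each of these steps was between -0.03 and 0.002. Of all tested probe sets, 47.6% were higher at hour 50 than at hour 46, and 46.6% at hour 74 than at hour 70. At hours 62 and 38, 50.3% and 49.0% were higher than 4 h before. The peak times that chose the members fix the direction of these steps, so nothing is read from the counts.

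Around the trough the members moved apart. From hour 42 to hour 46, 68 of 96 were higher at the later array, with a median step of 0.24, and from hour 66 to hour 70, 68 were higher, by 0.22. Of the 44 probe sets with peaks from hour 4 to under 6, 38 and 37 were higher at the later array of these steps, by medians of 0.58 and 0.51. Of the 52 with peaks from hour 6 to under 8, 30 and 31 were higher, by medians of 0.06 and 0.08. The peak times that chose the members also fix this order, so it is a description.

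The fitted peaks were spread over the window, with 20 in the hour from 4, 24 in the hour from 5, 28 in the hour from 6 and 24 in the hour from 7. The 44 probe sets with peaks before hour 6 stood at a median of 0.38 above their own mean at hour 26 and 0.15 at hour 34. The 52 with later peaks stood at -0.01 at hour 26 and 0.47 at hour 34. At hour 46 the earlier ones stood at -0.26 and the later ones at -0.57. Arrays 4 h apart and peaks with a standard error near 0.51 h do not resolve the order of neighbours within the window.

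**Figure D2:**
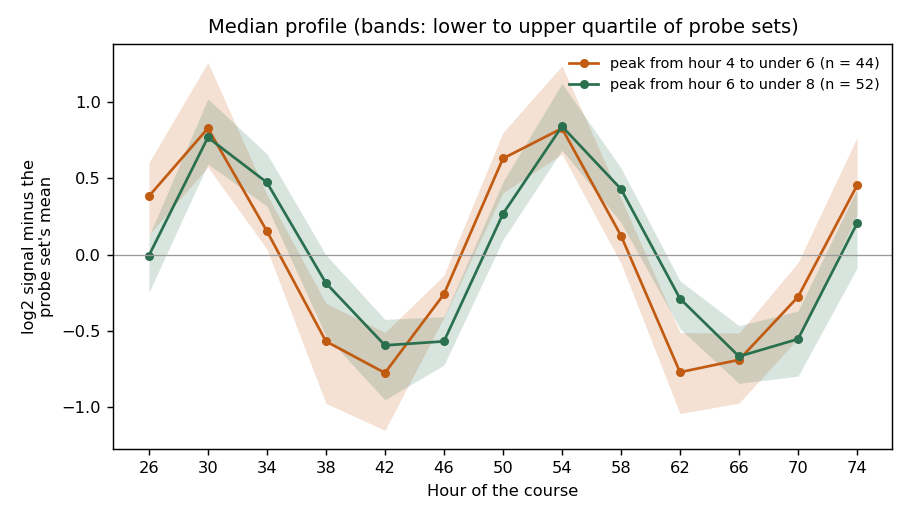
Median log2 signal minus each probe set's mean, by hour of the course, for the 44 probe sets with fitted peaks from hour 4 to under 6 (orange) and the 52 from hour 6 to under 8 (green). Bands run from the lower to the upper quartile of probe sets, and both lines crest at hours 30 and 54 while the orange line climbs and sinks earlier.

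Genes placed under energy supply and the recycling of cell material made up 1 group of named members. The group, like the other role groups below, was put together after the members were known. It held 6 genes, with changes of 2.14-fold to 3.35-fold. AILP1 and AT4G27450 were placed in it by choice, and a tie of these genes to energy supply was not tested. AILP1, named for its likeness to an aluminium-induced protein, had signals of 1811 at hour 30 and 1994 at hour 54, against 603 at hour 42 and 661 at hour 66. Its fitted change was 3.35-fold, with an amplitude of 0.87 ± 0.08 (SE) and a peak at hour 6.51 ± 0.34 (SE). Its relative AT4G27450 had signals of 502 and 341 at hours 30 and 54 against 131 and 141 at hours 42 and 66, and a change of 2.65-fold (amplitude 0.70 ± 0.14 SE). In both genes the levels at the crest hours lay above those at the trough hours, and the crest of AT4G27450 was lower on the second day.

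ATG8E encodes a ubiquitin-like protein that is joined to the membrane of the autophagosome, the vesicle that carries cell material to the vacuole. Its signal was 124 at hour 30 and 141 at hour 54, and it was 74.2 at hour 42 and 49.8 at hour 66. The amplitude was 0.55 ± 0.08 (SE), a change of 2.14-fold, with a peak at hour 5.87. AKINBETA1, a beta subunit of the energy-sensing kinase SnRK1, had signals of 163 and 213 at hours 30 and 54 against 75.5 and 105 at hours 42 and 66, a change of 2.15-fold with a peak at hour 7.46 ± 0.72 (SE).

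MCCA encodes the biotin-carrying subunit of methylcrotonyl-CoA carboxylase, which acts in the breakdown of leucine. Its highest signal was 102 at hour 54 and its lowest 35.1 at hour 66, with a change of 2.14-fold and a peak at hour 7.79. AT5G02180, of the amino acid transporter family, had signals of 86 and 99.1 at hours 30 and 54 and its lowest, 34.6, at hour 62. It changed 2.23-fold and peaked at hour 4.33 ± 0.87 (SE). The peaks of this group were spread across the window, from hour 4.33 to hour 7.79.

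The regulators held the largest change of any role group with a known function. AT1G23390 is a Kelch-repeat F-box protein known to target chalcone synthase, the entry enzyme of flavonoid synthesis, for breakdown. Its signal was 936 at hour 30 and 993 at hour 54, and it lay between 103 and 159 at hours 42, 46 and 66. The fitted change was 7.91-fold (amplitude 1.49 ± 0.16 SE), the peak hour 6.43 ± 0.37 (SE). Leaving out any single array kept the change between 7.22-fold and 10.0-fold.

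AT3G16800 is a type 2C protein phosphatase of a clade known to restrain growth under drought. Its level was 323 at hour 30 and 219 at hour 54 against 77.4 and 79.9 at hours 42 and 66, a change of 3.07-fold (amplitude 0.81 ± 0.07 SE) with a peak at hour 5.46. The crest was lower on the second day and the trough was not. AT4G01330, a protein kinase, changed 2.23-fold and peaked at hour 6.93.

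A pair of GARP transcription factors related to the clock factor LUX were members. MYBC1, known as a negative regulator of freezing tolerance, was dim, with signals of 55.9 at hour 30, 49.7 at hour 54 and 17.9 at hour 42. Its highest array was that of hour 74, at 76.3, and its amplitude was 0.70 ± 0.13 (SE), a change of 2.64-fold. AT5G05090 had signals of 65.8 and 62.2 at hours 30 and 54 against 29.2 and 38 at hours 42 and 66, a change of 2.06-fold. Their peaks were hour 5.00 ± 0.69 (SE) and hour 7.03 ± 0.75 (SE).

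Defence peptides and cell wall proteins made up 4 of the members. Thionins are small, cysteine-rich peptides that are toxic to microbes. AT1G66100, annotated as a thionin, had signals of 152 at hour 30 and 623 at hour 54, with 49.9 at hour 42 and 153 at hour 66. The daily swing fitted to the whole course was 6.09-fold with a peak at hour 4.64 ± 0.62 (SE), beside a rising line. Fitted by day, its amplitude was 0.63 over hours 26 to 46 and 1.35 over hours 50 to 70. Limma did not call that difference. THI2.2, another thionin, had signals of 332 and 472 at hours 30 and 54 against 108 and 87.9 at hours 42 and 66, a change of 3.26-fold (amplitude 0.85 ± 0.12 SE, peak hour 4.99).

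AT4G23820, a pectin lyase-like protein of the kind that cuts cell wall pectin, had the latest peak of the named members, hour 7.95 ± 0.44 (SE). It stood between 413 and 454 at hours 30, 34, 54 and 58, and its lowest signal was 134 at hour 70, a change of 3.17-fold. Its crest was thus a plateau across hours 6 and 10 on both days. AT5G11420, a DUF642 protein of the cell wall, changed 2.18-fold, from signals of 1323 and 1159 at hours 30 and 54 to 582 and 444 at hours 42 and 66.

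**Figure D3:**
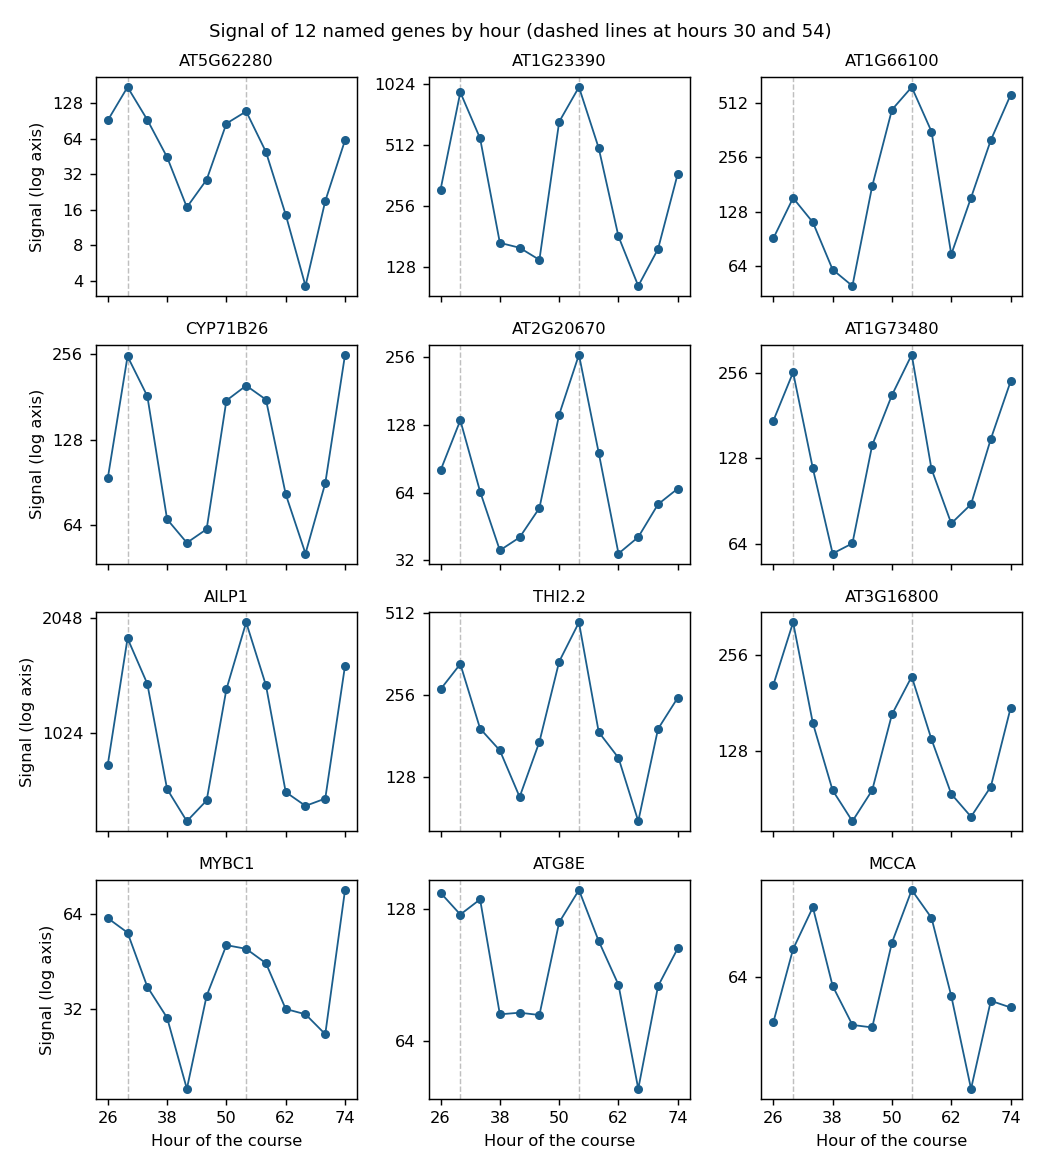
Signal of 12 named members at each of the 13 hours, 1 array per point, on log axes that differ between panels, with dashed lines at hours 30 and 54. Crests stand at or next to the dashed lines, the second crest of AT1G66100 (623) lies far above its first (152), and MYBC1 is highest at hour 74 (76.3).

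Enzymes that split phosphate or ester bonds formed a group of 7 with the lipid-related proteins, with changes of 2.03-fold to 4.08-fold. AT1G73480, an alpha/beta hydrolase of the lipase type, had the earliest peak of all named members, hour 4.02 ± 0.34 (SE), and the largest change of the group. Its level was 257 at hour 30 and 296 at hour 54, and its lowest signals were 59.1 at hour 38 and 75.4 at hour 62, both at hour 14 of the day. Its trough thus came 1 array earlier than that of most members. AT2G32150, a hydrolase of the haloacid dehalogenase type, also had its lowest signals at hour 14 of the day, 75.2 at hour 38 and 74.3 at hour 62, with a peak at hour 4.94 and a change of 2.99-fold.

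A pair of phosphatases sat at the other end of the window. AT1G25230, a purple acid phosphatase, had signals of 380 and 433 at hours 30 and 54 and its lowest signals at hours 46 and 70, 149 and 113. AT5G44020, an acid phosphatase of the haloacid dehalogenase type, had 948 and 1090 at the crest hours and 354 and 293 at hours 46 and 70. The changes were 3.05-fold and 2.88-fold, with peaks at hour 7.84 ± 0.33 (SE) and hour 7.61 ± 0.44 (SE). Both troughs fell at hour 22 of the day, 2 arrays later than that of AT1G73480.

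The other members of the enzyme group were AT4G09760, of the choline kinase family (2.52-fold, peak hour 6.93), AT4G38690, a phospholipase C-like phosphodiesterase (2.32-fold, peak hour 4.89), and AT3G23080, a protein with a START-type lipid-binding fold (2.03-fold, peak hour 5.03). The redox enzymes were CYP71B26 and AT2G29290. CYP71B26, a cytochrome P450, had signals of 252, 198 and 255 at hours 30, 54 and 74 against 55.4 and 50.8 at hours 42 and 66. Its change was 5.17-fold (amplitude 1.18 ± 0.12 SE) and its peak hour 6.30, with a broad crest on the second day, where hours 50, 54 and 58 lay between 176 and 198. AT2G29290, a tropinone reductase-like protein, changed 2.25-fold.

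The nucleic acid enzymes were 2 members of a family related to 3-methyladenine DNA glycosylases, which remove damaged bases from DNA, and an HNH endonuclease. AT3G12710 and AT5G44680, the glycosylase relatives, had changes of 2.61-fold and 2.47-fold and peaks at hours 7.77 and 7.78. AT3G12710 had signals of 279 and 213 at hours 30 and 54 and its lowest, 58.2, at hour 46. AT5G44680 had 278 and 316 at the crest hours and its lowest, 123, also at hour 46. AT2G23840, the endonuclease, changed 2.63-fold.

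Families without an established function held the largest change among the named members. AT5G62280, of the DUF1442 family, had signals of 175 at hour 30 and 109 at hour 54, with 16.8 at hour 42 and 3.62 at hour 66. The fitted change of 11.0-fold became 4.73-fold when 16 signal units were added before the log, so its size rests on the dimmest arrays. It ranged from 7.83-fold without hour 66 upward when single arrays were left out. Among all 96 probe sets, 7 had a fold over 1.5 times the value with the offset, and AT5G62280 was the only one of them with a named gene.

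AT2G20670 and AT3G07350 belong to the DUF506 family. AT2G20670 had signals of 134 and 263 at hours 30 and 54 against 40.5 and 40.6 at hours 42 and 66, a change of 4.41-fold (amplitude 1.07 ± 0.20 SE). AT3G07350 had 136 and 143 against 23 and 40.1, a change of 3.80-fold (amplitude 0.96 ± 0.13 SE). The crest of AT2G20670 was narrow, since its signal was 64.7 at hour 34 and 96.2 at hour 58, and its hour 74 value of 66.7 lay below the 142 of hour 50.

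The DUF584 proteins AT5G03230 (2.65-fold, peak hour 5.98) and AT5G60680 (2.29-fold, peak hour 7.32) were also members. So were the DUF1005 proteins AT3G19680 (2.56-fold, peak hour 4.78) and AT1G10020 (2.22-fold, peak hour 4.09), with AT3G20300, a DUF3537 protein (2.37-fold, peak hour 7.48), and AR781 (2.05-fold, peak hour 7.40). The signals of AT3G19680, AT1G10020, AT3G20300 and AR781 lay between 24.8 and 93.8 on all arrays.

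Members named for stress responses had small changes. SIS, the salt-induced serine-rich protein, had signals of 210 and 266 at hours 30 and 54 against 103 and 130 at hours 42 and 66, a change of 2.11-fold with a peak at hour 6.54. DI21, a drought-induced gene, changed 2.02-fold, and its highest arrays were those of hours 26, 58 and 74, at 441, 448 and 446, with 361 at hour 54. DI21 thus had no crest at hours 30 and 54, and its fitted peak of hour 5.06 ± 0.87 (SE) lies between its high arrays.

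For 8 named members no role is given here. AT1G01240 had signals of 269 and 262 at hours 30 and 54 against 68.4 and 89.9 at hours 42 and 66, a change of 3.76-fold (amplitude 0.96 ± 0.08 SE, peak hour 6.31). AT2G29670, which holds tetratricopeptide repeats, had 417, 510 and 503 at hours 30, 54 and 74 and 121 at hour 26, a change of 3.63-fold. AT5G12050 had the highest partial R2 of the named members, 0.95, with a change of 3.12-fold and a peak at hour 4.61. AT5G59080, AT5G16030, AT5G64180 and AT5G57340 changed 2.79-fold, 2.74-fold, 2.32-fold and 2.08-fold.

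AT1G73470, the last of these, lies next to AT1G73480 in the TAIR10.1 gene table, and they were the only pair of neighbouring loci among the 46. Their crests were apart, at hour 6.25 ± 0.29 (SE) for AT1G73470 and hour 4.02 ± 0.34 (SE) for AT1G73480. AT1G73470 had signals of 155 and 202 at hours 30 and 54 against 51.1 and 66.8 at hours 42 and 66, a change of 3.27-fold. At hour 34 it was still at 139, near its crest, where AT1G73480 had dropped from 257 to 118.

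The 50 probe sets without a single gene had changes of 2.01-fold to 27.9-fold, with a median of 3.17-fold, against 2.02-fold to 11.0-fold and a median of 2.64-fold for the named ones. With 16 units added before the log, their largest change was 11.7-fold and their median 2.72-fold. Their median peak was hour 6.06 and that of the named members hour 6.27. Their lowest signals ran from 2.55 to 2019 and their highest from 64.1 to 4897.

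The genes nearest to each threshold were as follows. DI21 was the named member with the smallest amplitude, 0.51, and the smallest partial R2, 0.68, and AT5G63190 lay outside with an amplitude of 0.50 at a peak of hour 7.75. AT1G22570 lay outside by its partial R2 of 0.62. At the early edge AT1G73480 (hour 4.02) was inside and TRXF2, a thioredoxin of the chloroplast (hour 3.89), outside. At the late edge AT4G23820 (hour 7.95) was inside and AT1G35612 (hour 8.03) outside. IAA29, a repressor of auxin response with an amplitude of 0.99 and a peak at hour 6.43, lay outside by its mean log2 signal of 4.96, and MYBC1 was the dimmest named member at 5.30.

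Relatives of the members were then examined, to see whether whole families shared the wave. The 12 families were chosen after the members were known, and the relatives' own rhythm took no part in the choice of members. Of 33 tested relatives, 10 were called rhythmic by limma's moderated F test at an adjusted p under 0.05 (30.3%), against 18.4% of all tested probe sets. Of the same 33 relatives, 4 were called with a crest in the window, 2 of them in the ATG8 family, against 2.96% of all tested probe sets. Neither difference was tested.

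The aluminium-induced-like family ranged from strong to flat. AT3G15450 had a larger swing than either member, 5.89-fold (amplitude 1.28 ± 0.19 SE, adjusted p = 7.75e-05, limma), but crested just past the window at hour 8.43 ± 0.50 (SE). AT5G43830 changed 1.52-fold with a crest at hour 8.18. AT3G22850 was flat, with an amplitude of 0.04 ± 0.05 (SE) and signals of 356, 361, 393 and 365 at hours 30, 54, 42 and 66.

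Among the 9 ATG8 genes, 3 were called rhythmic, the member ATG8E included. ATG8F changed 1.55-fold with a crest at hour 4.86 (adjusted p = 0.0025, limma), and APG8H (AT3G15580) 1.31-fold with a crest at hour 6.30 (adjusted p = 0.044). The other 6 had amplitudes from 0.08 (ATG8G) to 0.20 (APG8A), and none was called. The crests of all 3 rhythmic genes fell in the same window, with different sizes.

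The growth-restraining phosphatases AT3G05640 and AT5G27930, relatives of AT3G16800, changed 2.03-fold and 1.88-fold and were called rhythmic. Their crests came at hour 8.78 ± 0.58 (SE) and hour 10.9 ± 0.73 (SE), later than the hour 5.46 ± 0.34 (SE) of AT3G16800. The glycosylase relative AT1G75090 likewise crested later, at hour 11.1 (1.84-fold), and AT1G80850 was not called (amplitude 0.16 ± 0.07 SE). In the DUF506 family AT2G38820 crested in the window at hour 5.36 (1.95-fold) and AT3G22970 at hour 9.60 (1.61-fold), and AT2G39650 was not called. In the DUF584 family AT4G04630 crested at hour 7.80 (3.04-fold, adjusted p = 0.021, limma) and missed membership by its partial R2 of 0.56, and the other 4 tested relatives were not called.

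The remaining families held no called relative. AT3G10760, the third tested GARP factor, had an amplitude of 0.10 ± 0.04 (SE). The SnRK1 subunits AT4G16360 and AT2G28060 had amplitudes of 0.11 ± 0.08 and 0.05 ± 0.04 (SE). MCCB, the partner subunit of MCCA, changed 1.44-fold (amplitude 0.26 ± 0.09 SE, adjusted p = 0.086, limma), and isovaleryl-CoA dehydrogenase (IVD), the preceding step of leucine breakdown, 1.41-fold (adjusted p = 0.11). The thionin AT2G15010 changed 2.92-fold with a crest at hour 4.06, and the scatter of its arrays left it uncalled (amplitude 0.77 ± 0.29 SE, adjusted p = 0.066). The 4 tested DUF642 relatives had amplitudes of 0.11 to 0.19 and none was called.

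**Figure D4:**
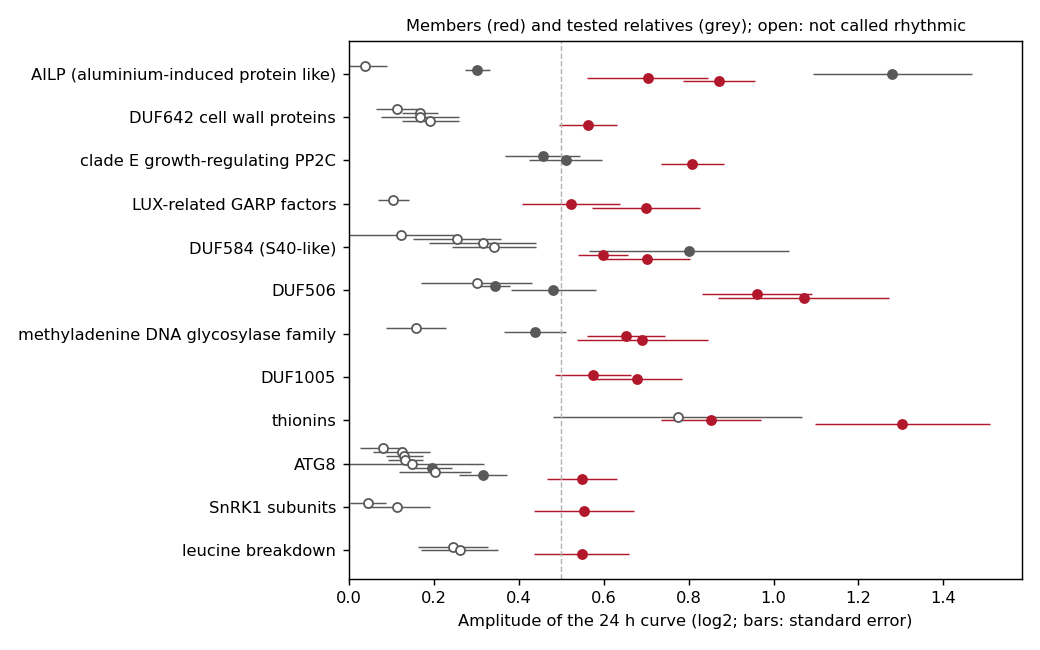
Amplitude of the 24 h curve on the log2 scale for the tested genes of 12 families, with standard errors of the fit as bars. Red points are members, grey points relatives that are not members, open points genes not called rhythmic by limma at an adjusted p under 0.05, and the dashed line marks the amplitude minimum of 0.5, which AT3G15450 of the aluminium-induced-like family exceeds at 1.28.

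Genes of pathways known for daily rhythms were looked up in 18 lists. Of these lists of clock, hormone, cell wall, photosynthesis, metabolism, stress, light and tissue marker genes, 15 had a tested gene. They covered 55 tested loci, of which limma called 22 rhythmic (40%), against 16.8% of all 7234 tested loci. The lists contained 0 members and 1 called gene with a crest in the window, WES1, which conjugates auxin to amino acids (amplitude 0.49, crest at hour 5.39, adjusted p = 0.0030). That is 1.82% of the 55 loci, near the 2.96% of all tested probe sets that were called with a crest there, and members made up 0.705% of all tested probe sets, so nothing is read from either count. Most of the 496 list entries had no tested probe set with a single gene. Rhythmic calls numbered 2 of 3 tested clock genes, 1 of 6 for auxin, 1 of 4 for gibberellin and brassinosteroid, 3 of 9 for the cell wall, 0 of 3 for wax and cutin, and 2 of 4 for the photosystems. They numbered 5 of 10 for carbon fixation and starch, 0 of 2 for sulphate, 3 of 3 for flavonoids, 3 of 4 for cold, 1 of 1 for light signalling, 2 of 3 for flowering time, and 0 of 5 tissue markers. Crests lay elsewhere for GI of the clock (hour 9.02), LHCB4.2 of the photosystem II antenna (hour 3.47), DPE1 of starch breakdown (hour 11.1) and the cold-regulated COR15A (hour 9.55).

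The next comparison asked whether members drifted over the course beside their daily swing. Limma's moderated test of the straight line called 2 of 96 at an adjusted p under 0.05, both rising, against 0.382% of all tested probe sets rising and 0.632% falling. AT1G66100, the thionin, climbed by 1.31 ± 0.19 (SE, log2 per 24 h, adjusted p = 0.0054). Its signals were 91.3, 152, 112, 61.4, 49.9 and 177 from hour 26 to hour 46, and 467, 623, 354, 74.5, 153 and 318 from hour 50 to hour 70. Each array of the later day was above the one taken 24 h before it. The slope was 1.09 (adjusted p = 0.039) without hour 26 and 1.53 (0.0073) without hour 74, and without variance moderation it was not called (adjusted p = 0.11). THI2.2 did not share it, with a slope of -0.002 ± 0.11 (SE, adjusted p = 1.00), and the difference between the thionins was not tested.

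The other called probe set has no single gene and climbed by 0.43 per 24 h (adjusted p = 0.024). It was not called without hour 26 or without hour 74, each of which left the call of AT1G66100 alone. Slopes were positive in 54 members and negative in 42, with a median of 0.02 per 24 h against 0.01 over all tested probe sets. At an unadjusted p under 0.05 there were 24 members (25%), against 11.1% of all tested probe sets. The rule set no threshold on the slope but favoured small scatter round the curve. Nothing is therefore read from this share or from the count of calls. AT5G62280 had the most negative slope, -0.76 ± 0.21 (SE, adjusted p = 0.13), and with the offset the slope was -0.49 (adjusted p = 0.017).

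The shape of the wave was compared with a plain cosine by adding terms of 12 h. Limma called 0 of 96 members at an adjusted p under 0.05, against 0.022% of all tested probe sets, and ordinary least squares without moderation also called 0. At an unadjusted p under 0.05, limma gave 30 members (31.3%) and least squares 15 (15.6%), against 12.2% of all tested probe sets with limma. The rule limited the size of the 12 h terms through partial R2 and favoured small scatter, so nothing is read from these shares. The amplitude of the 12 h terms was a median of 0.23 times that of the 24 h terms. Strong rhythms that crest in the other 4 h windows of the day had median ratios of 0.21 to 0.30. Their shares at an unadjusted p under 0.05 (limma) were 51.3% (window from hour 0), 31.1% (hour 8), 50.7% (hour 12), 23.2% (hour 16) and 29.8% (hour 20). The difference between windows was not tested. In 41 of 96 members (42.7%) a crest of the 12 h wave lay within 1.5 h of the 24 h peak. This is the arrangement that makes a crest narrower and a trough broader. The share was 22.4% of all tested probe sets and 18.6% of all called rhythmic by limma, and the differences were not tested. Of the 41 members, 15 had an unadjusted p under 0.05 for the 12 h terms (limma). The share in the other windows is not given here. Among the named members the smallest adjusted p-values were those of AT4G38690 (12 h amplitude 0.29, adjusted p = 0.25, limma) and AT3G20300 (12 h amplitude 0.29, adjusted p = 0.28, limma). AT4G38690 stood at 237 and 233 at hours 30 and 54, between 93.2 and 135 from hour 34 to hour 42 and from hour 58 to hour 66.

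The days were then compared with each other on the 12 arrays from hour 26 to hour 70. Limma's interaction of the cosine and sine with the later day called 0 of 96 members and 0% of all tested probe sets. At an unadjusted p under 0.05 it gave 14 members (14.6%), against 3.28% of all tested probe sets, and least squares called 0 with 8 at an unadjusted p under 0.05. The rule favoured curves alike on both days and small scatter, so nothing is read from these shares. The amplitude on the later day was a median of 1.11 times that on the earlier day, with quartiles of 0.90 and 1.31. It was larger on the later day in 61 of 96 members (63.5%), against 49.8% of all tested probe sets.

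**Figure D5:**
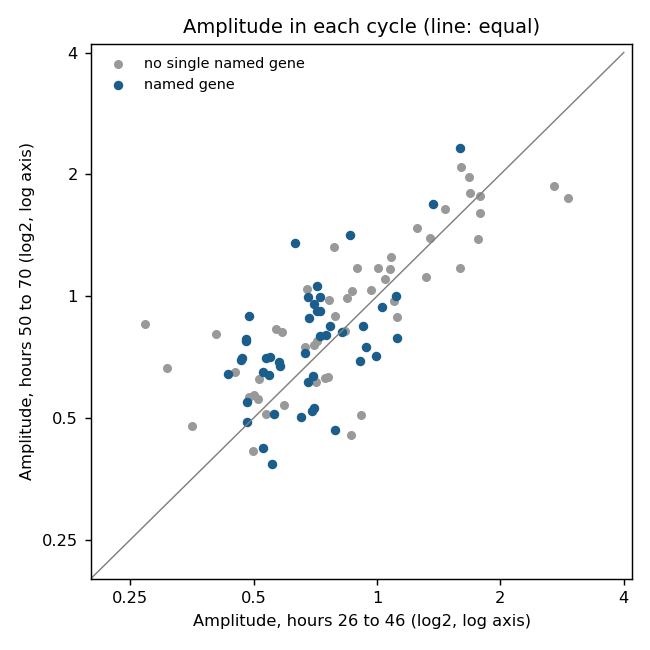
Amplitude of each of the 96 probe sets (log2 scale, log axes) fitted to hours 26 to 46 (horizontal) and to hours 50 to 70 (vertical), with the line of equal values. Points above the line, 61 of 96, had the larger amplitude on the later day, and blue points are the 46 named genes.

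The array of hour 26 bears on this comparison. In 79 of 96 members it lay below the fitted curve, by a median of 0.24, and in 74 of 96 its level was below that of hour 50, with a median difference of 0.33, against 0.02 over all tested probe sets. The other pairs of arrays 24 h apart had median differences between -0.13 (hours 50 and 74) and 0.08 (hours 30 and 54). Arrays of the later day lay off the curve as well. That of hour 54 was above it in 72 of 96 members, by a median of 0.18. Those of hours 58 and 62 were below it in 75 and 72 members, by medians of 0.10 and 0.11. No share over all tested probe sets is given for the counts in this paragraph. Whether they are particular to the members therefore cannot be read from them. Without hour 26 the median amplitude ratio was 1.06 and 53 of 96 members were larger on the later day. No share over all tested probe sets is given for that fit, so nothing is read from this count. Without hour 26 the sets of strong rhythms that crest in the other 4 h windows of the day had median ratios of 0.82 (window from hour 0), 1.01 (hour 8), 0.94 (hour 12), 0.99 (hour 16) and 0.85 (hour 20), and the difference between windows was not tested.

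Fitted crests were on balance earlier on the later day, and the median shift was smaller without the array of hour 26. Neither the shift nor the amplitude ratio is given here without each of the other arrays. The fitted peak moved by a median of -0.77 h, and it was earlier in 76 of 96 members (79.2%), against -0.55 h and 56.5% over all tested probe sets. Without hour 26 the median was -0.31 h and 58 of 96 members (60.4%) were earlier, against -0.46 h and 55.4% over all tested probe sets. Over all probe sets called rhythmic by limma, the median was -0.64 h with hour 26 and -0.46 h without it. Of those, 69.3% were earlier with hour 26 and 63.8% without it, so the members were below that share without hour 26. The period with the smallest residual scatter had a median of 23.5 h, with quartiles of 23 h and 24 h and a range of 21 h to 26.5 h. The members were chosen with 24 h terms, and the other windows had median best periods of 23 h or 23.5 h and median peak shifts of -0.47 h to -0.80 h. Whether the shift differed between windows was not tested. AT5G02180, the amino acid transporter, came first among the named members in the comparison of days (adjusted p = 1.00, limma). Its fitted peak was hour 6.23 on the earlier day and hour 2.73 on the later one. Its signal was 53.0 at hour 26 and 96.3 at hour 50, and its shift without hour 26 is not given here. AT1G25230, the purple acid phosphatase, followed (adjusted p = 1.00, limma), with amplitudes of 0.72 and 1.00.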

How the data were processed

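The deposited values are MAS5 signals, linear intensity values with 1 per probe set and array, per the submitters' processing notes; no MAS5 version is given in the sources used here. With the top and bottom 2% of values trimmed, all arrays had a mean of 100.01, as after scaling to a common target. A change in total RNA per cell would not be seen after such scaling. Log2 of the deposited intensity was analysed without an offset, for probe sets with a mean above 5. Curves were fitted by least squares in Python 3.11.15 (numpy 2.4.6, pandas 2.3.3), and tests were run with limma 3.58.1 in R 4.3.3 (lmFit, eBayes with an intensity trend), with Benjamini-Hochberg adjustment over all 13611 probe sets and a threshold of 0.05. The fits were tested on simulated data. Figures were drawn with matplotlib 3.10.9.

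The best period was sought from 20 to 30 h in steps of 0.5 h. Of the non-control probe sets, 13513 had 1 gene in the platform annotation (13436 of them matched to a locus of the TAIR10.1 gene table), 503 had several and 8730 had none. That table was used for names and neighbours alone, and no coordinates are given. Members and lists were chosen with earlier results of these data known. The rule for named genes took the 12 largest amplitudes on either side of hour 6, every gene with a symbol of its own, and the genes at each threshold. It gave 30 of the 46 named members, and the other 16 were named after their values were seen, so that every named member is accounted for. Promoter sequences were not used here.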

Additional observations from a re-analysis of the deposited data

How the results depend on the processing

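The count of members ran from 70 (an offset of 16 before the log, or an amplitude of at least 0.6) to 144 (an amplitude of at least 0.4), against 96. With single arrays left out it ran from 81 (without hour 54, 78 of them shared with the 96) to 113. Drift calls among members were 0 without variance moderation, 4 with a period of 23 h, 1 with 25 h and 1 without hours 26 and 74 together, against 2, and 1 to 2 with single arrays left out; in these fits the causes were not tested. Calls of a 12 h component ran from 0 to 1 with single arrays left out (1 without hour 50), and calls of a difference between days stayed at 0. Rhythmic list genes ran from 20 to 23 with single arrays left out, and the median best period from 23.5 to 24 h. Under normalization, offset, period, line and single-array alternatives, the fold of AT5G62280 was the only one of the 46 named members to move by over 1.5 times, with the offset. No paired analysis was possible because every array carries the same replicate number, so a replicate block could not be fitted; arrays 24 h apart were compared by their differences instead. The alternative for promoter motifs was not run. Dim probe sets limit the sizes of change: 7 members had folds that shrank by over 1.5 times with the offset.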
